A study of Mus musculus with 12 samples.

Results

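The 10 genes described here, Gata6, Timd4, Vsig4, Icam2, Selp, F5, Fn1, Prg4, Cxcl13 and Alox15, mark the large macrophages that live in the mouse peritoneal cavity. They were chosen by symbol from a list of known markers, and all 10 were found among the 12339 genes of the count table. Transcripts were counted in macrophages that thioglycolate had drawn into the peritoneum, so the markers were read in a population made up mostly of newly recruited cells. Mice were wild type (WT) or meKO, a line read here from the series title as a knockout of protein kinase C epsilon (gene Prkce) in myeloid cells; the labels name neither the Cre line nor the allele. All mice of both genotypes and both diets had been given, at 8 weeks of age, an adeno-associated virus of serotype AAV8. They then stayed on chow or ate a high-fat Western diet (HFD), and the cells were washed out of the peritoneum 4 weeks later. The design text describes 8 mice of each genotype with 4 on the high-fat diet, and 3 libraries were analysed in each of the 4 groups of genotype and diet (WT or meKO, chow or HFD). The labels do not say whether the 3 libraries of a group came from separate animals, so the p-values measure the spread between these libraries.

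Large peritoneal macrophages are seeded early in life and maintain themselves in the cavity. Their identity depends on the transcription factor GATA6, which retinoic acid made by the mesothelium and omentum keeps on, and they take up dying cells through TIM4, the product of Timd4. When the cavity is inflamed, as after thioglycolate, these cells stick to the lining and clot and become scarce in the lavage, while monocyte-derived macrophages fill the space. A marker level in bulk RNA can therefore reflect both how many resident cells were collected and how much transcript each held, and these cannot be told apart here.

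On the high-fat diet F5, the gene of coagulation factor V, and Alox15, a lipoxygenase gene, fell in WT cells, F5 from 37.4 ± 3.20 to 19.3 ± 1.98 CPM and Alox15 from 14.6 ± 9.49 to 3.87 ± 2.08 CPM (mean ± SD, n = 3; CPM, counts scaled to library size with TMM factors). The F5 call stood in 16 of 20 alternative fits (other settings, or 1 library left out). The Alox15 call, with overlapping groups and an edgeR adjusted p of 0.0498, stood in 6 of the 20. Averaged over the genotypes, Gata6 rose on the diet, from 1.99 ± 0.558 to 3.33 ± 0.638 CPM (n = 6), and F5 and Alox15 fell. The averaged calls of Gata6 and F5 stood in all 19 alternative fits, and that of Alox15 in 9 of them. The remaining 7 markers passed in no comparison by the same test. Between WT and meKO cells 0 of the 10 markers passed on either diet. Of all genes, 0.081% passed for genotype on each diet, 21.3% for diet in WT cells (11.8% lower) and 30.2% for diet averaged over genotypes. Timd4, Selp and Prg4 varied together from library to library, within groups as well as between them.

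Libraries held 25845000 to 37282800 counts (6 digits). Prkce lay between 2.01 and 4.44 CPM in the 6 WT libraries and between 0.950 and 1.78 CPM in the 6 meKO libraries, without overlap. The 8 macrophage-defining genes (among them Adgre1, Csf1r, Cd68 and Spi1) summed to 5272 to 6567 CPM and were present in every library. In the library meKO chow replicate 2 Lyz2, the lysozyme gene of myeloid cells, stood at 69.3 CPM. It lay between 16293 and 21309 CPM in the other meKO libraries and between 30482 and 53835 CPM in the 6 WT libraries, without overlap. WT chow replicates 1 and 2 held relatively more reads of long transcripts: across genes, their deviation from the mean library had a Spearman correlation with exon length of 0.53 and 0.58, against -0.39 to 0.11 in the other 10 libraries.

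Levels of different genes were compared per kilobase of exon (union exon lengths from GENCODE vM21 on GRCm38, which also gives the positions below). Vsig4, at a mean of 102.6 CPM per kb over the 12 libraries, and Fn1, at 100.8, were the highest markers by this measure. Prg4 (9.45 CPM per kb), Icam2 (8.70) and Timd4 (6.72) followed, then F5 (3.81), Alox15 (3.43), Cxcl13 (2.70) and Selp (1.73). Gata6 was the lowest, at 0.408 CPM per kb, from 39 to 113 counts a library. The SDs over libraries of Vsig4 (40.5) and Fn1 (37.6), and of Prg4 (6.53), Icam2 (2.57) and Timd4 (3.05), were larger than the gaps between neighbours in this order, as were those of F5 (1.30), Alox15 (2.58), Cxcl13 (1.42) and Selp (1.13). The gaps were not compared within libraries, so the order of those neighbours was not tested.

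**Figure D1:**
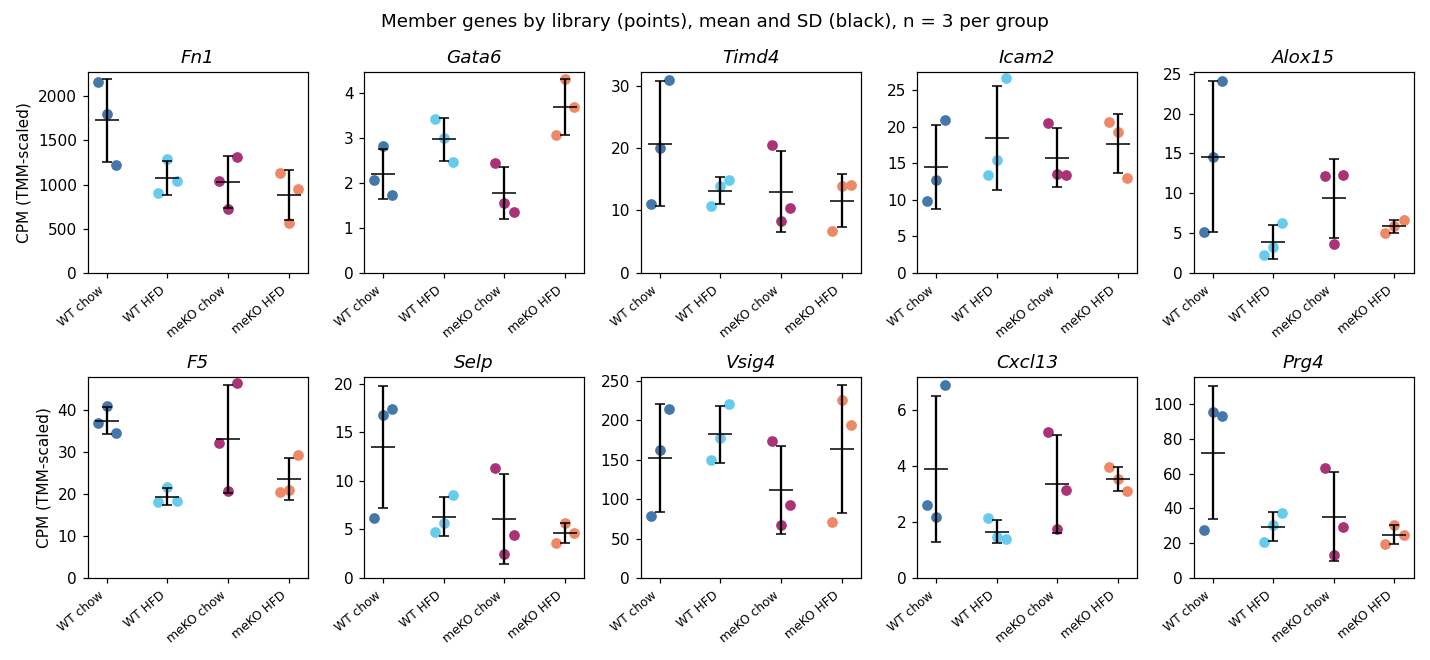
Level of each of the 10 markers in TMM-scaled CPM (vertical axis, from 0) in the 12 libraries (points) by group, with the mean and SD of 3 libraries in black. F5 in WT cells separates by diet, with 34.5 to 40.8 CPM on chow and 18.1 to 21.6 on the high-fat diet, and the WT chow and meKO chow libraries spread widely for Timd4, Selp and Prg4.

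Promoter windows from RefSeq (GRCm38.p6) matched 5 of the 10 markers: Timd4, Vsig4, Selp, F5 and Cxcl13. The 250 bases before the start of Timd4 (chr11:46810549-46810798, plus strand), Vsig4 (chrX:96293439-96293688, minus strand) and Selp (chr1:164115014-164115263, plus strand) are shown because Timd4 varied across libraries with Selp, and within groups with Vsig4. Each is written 5′ to 3′ in the direction of its gene. Capitals mark GGAAGT, a word with the core that ETS factors such as the product of Spi1 bind, and, where it extends that far, the composite word GGAA, any 2 bases, GAAA, at which a partner of the IRF family can sit beside the ETS factor.
Timd4: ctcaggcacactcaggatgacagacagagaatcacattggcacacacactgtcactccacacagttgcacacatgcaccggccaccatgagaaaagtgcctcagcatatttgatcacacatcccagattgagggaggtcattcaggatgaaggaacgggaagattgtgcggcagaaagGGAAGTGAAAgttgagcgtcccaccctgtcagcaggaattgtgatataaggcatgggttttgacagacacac
Vsig4: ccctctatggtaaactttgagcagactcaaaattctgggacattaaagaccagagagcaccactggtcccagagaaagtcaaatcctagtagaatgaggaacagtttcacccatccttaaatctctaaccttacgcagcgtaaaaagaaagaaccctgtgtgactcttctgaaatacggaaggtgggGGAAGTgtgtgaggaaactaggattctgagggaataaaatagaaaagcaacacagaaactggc
Selp: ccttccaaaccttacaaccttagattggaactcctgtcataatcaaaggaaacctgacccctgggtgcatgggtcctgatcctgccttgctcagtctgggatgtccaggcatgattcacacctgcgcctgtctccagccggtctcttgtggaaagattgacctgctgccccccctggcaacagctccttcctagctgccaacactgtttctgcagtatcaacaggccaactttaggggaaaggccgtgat
Both words were chosen after the sequences were seen and searched on both strands. GGAAGT begins 72 bases before the start of Timd4, as part of the longer word, and 63 bases before the start of Vsig4; Selp, F5 and Cxcl13 hold neither word. Of all 32851 windows of 250 bases, 19.7% hold GGAAGT and 2.30% hold the longer word. Forms of the GATA recognition sequence were searched in the same way: the word AGATAA and the variant that ends in G (AGATAG), and both words with T as the first base (TGATAA, or with a final G, TGATAG). They are in 0 of the 5 windows on either strand and in 26.5% of all windows. These matches describe the letters in the windows alone.

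Gata6 (chr18:11052064-11085635, plus strand) encodes the factor that sets the identity of these cells. It was read at 2.07, 2.81 and 1.72 CPM in WT chow replicates 1, 2 and 3, and at 3.43, 2.995 and 2.47 CPM in WT HFD. In meKO cells it was at 2.44, 1.55 and 1.35 CPM on chow and at 3.06, 4.31 and 3.69 CPM on the high-fat diet. Every meKO HFD library lay above every meKO chow library, while the WT groups overlapped in 1 pair, WT chow replicate 2 above WT HFD replicate 3. The high-fat diet averaged over genotypes gave a log2 fold change of 0.74 ± 0.19 (SE), or 1.67-fold, with an edgeR adjusted p of 0.0141. This call stood in each of the 19 alternative fits. Among them is the fit with no filter, which repeats the main fit because the filter removed 0 genes. Over the 12 fits without 1 library the edgeR adjusted p of the call ran from 0.00910 to 0.0393. Within meKO cells the diet gave 1.04 ± 0.27 (edgeR adjusted p = 0.140) and within WT cells 0.43 ± 0.26 (edgeR adjusted p = 0.239). By DESeq2 the meKO difference had an adjusted p of 0.0203, by limma-voom with library weights 0.0302, and over all 20 alternatives the value ran up to 0.470. Between the genotypes Gata6 differed by -0.30 ± 0.27 on chow and by 0.31 ± 0.26 on the high-fat diet, edgeR adjusted p = 0.529 and 0.999.

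Mesothelial cells also express Gata6, and mesothelial transcripts moved with the diet in the same libraries. Of 12 mesothelium markers 9 were in the table (Krt18, Muc16 and Bnc1 were not analysed here), and those 9 summed to 8.07 to 11.7 CPM in WT chow, 14.1 to 18.2 in WT HFD, 8.95 to 13.5 in meKO chow and 13.7 to 30.8 in meKO HFD. Averaged over genotypes 5 of the 9 rose and 0 fell, among them Krt19 (log2 fold change 1.23 ± 0.22) and Wt1 (1.07 ± 0.19), edgeR adjusted p = 0.00461 for each, against 14.9% of all genes higher and 30.2% called. In WT cells 3 of the 9 rose and 1 fell (21.3% of all genes called). In meKO cells 0 passed in edgeR (0.105% of all genes did), with 4 at an unadjusted p under 0.05 (15.9% of all genes). The 8 fibroblast markers, all in the table, summed to 51.1 to 90.4 CPM in WT chow, 87.4 to 133 in WT HFD, 51.1 to 95.5 in meKO chow and 111 to 131 in meKO HFD, and 2 of 8, Dcn and Pdgfra, rose on the diet averaged over genotypes. Msln, a defining gene of mesothelium, lay between 0.170 and 0.873 CPM and was at 0 in 0 libraries. The part of either cell type in the Gata6 result was not tested.

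**Figure D2:**
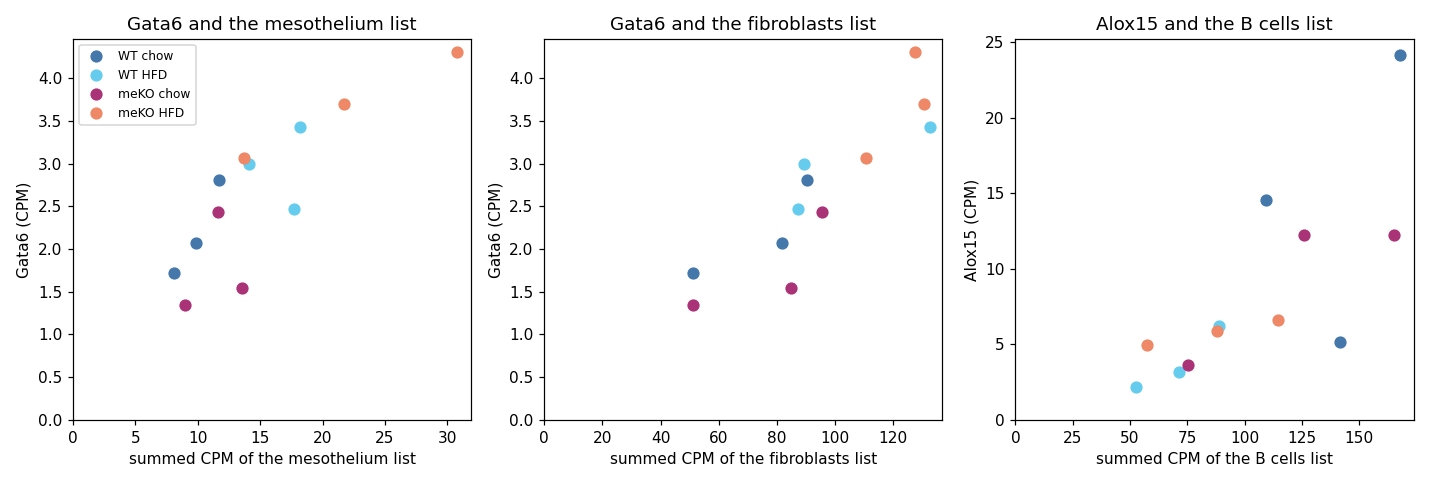
Gata6 against the summed CPM of the 9 mesothelium markers (left) and of the 8 fibroblast markers (middle), and Alox15 against the 6 B cell markers (right), 1 point per library, coloured by group, all axes linear CPM from 0. The library with the highest Gata6, meKO HFD replicate 2 at 4.31 CPM, also has the highest mesothelium sum, 30.8 CPM, and the library with the highest Alox15, WT chow replicate 3 at 24.1 CPM, has the highest B cell sum, 168 CPM.

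Of the receptors for particle uptake, Timd4 (chr11:46810800-46844332) binds phosphatidylserine on dying cells. Timd4 stood at 11.0, 20.1 and 31.0 CPM in WT chow and, in WT HFD, at 10.7, 14.0 and 14.8 CPM. The meKO libraries held 20.5, 8.22 and 10.3 CPM on chow and 6.69, 13.9 and 14.1 CPM on the high-fat diet. WT chow replicates 2 and 3 and meKO chow replicate 1 were above the other 9 libraries, and every pair of groups overlapped. The diet difference in WT cells was -0.65 ± 0.41 on the log2 scale (edgeR adjusted p = 0.256) and the genotype difference on chow -0.67 ± 0.41 (edgeR adjusted p = 0.368).

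Vsig4 (chrX:96247203-96293438, minus strand) encodes a complement receptor that captures opsonised particles. Its levels were 78.4, 162 and 215 CPM in WT chow and 149, 177 and 221 CPM in WT HFD. In meKO cells they were 174, 67.6 and 92.1 CPM on chow and 70.9, 225 and 194 CPM on the high-fat diet. WT chow replicate 1, meKO chow replicates 2 and 3 and meKO HFD replicate 1 formed the low end, below 100 CPM, so that 3 of the 4 groups held both low and high libraries. The diet differences were 0.27 ± 0.50 in WT and 0.55 ± 0.51 in meKO cells, edgeR adjusted p = 0.722 and 0.594.

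Icam2 and Selp encode adhesion molecules. Icam2 (chr11:106377656-106388075, minus strand), a ligand of leukocyte integrins used to sort these cells, was at 9.79, 12.6 and 20.9 CPM in WT chow, at 13.3, 15.4 and 26.6 in WT HFD, at 20.5, 13.5 and 13.3 in meKO chow and at 20.6, 19.3 and 13.02 in meKO HFD. All groups overlapped, and its group means ran from 14.5 to 18.4 CPM. The 4 simple differences ran from -0.06 ± 0.30 for genotype on the high-fat diet to 0.35 ± 0.31 for diet in WT cells, with edgeR adjusted p-values of 0.402 and above.

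Selp (chr1:164115264-164150026), which encodes P-selectin, was at 6.22, 16.8 and 17.4 CPM in WT chow and, in WT HFD, at 4.69, 5.72 and 8.60 CPM. The meKO levels were 11.4, 2.47 and 4.39 CPM on chow and 3.61, 5.68 and 4.65 CPM on the high-fat diet. The 3 high libraries were those of Timd4, WT chow replicates 2 and 3 and meKO chow replicate 1, and the groups overlapped in each of the 4 comparisons. The diet difference in WT cells was -1.08 ± 0.51 (edgeR adjusted p = 0.139) and the genotype difference on chow -1.14 ± 0.51 (edgeR adjusted p = 0.247). Selp is also made by platelets and endothelium: 5 of 10 platelet markers were in the table (Gp1ba, Gp1bb, Gp9, Gp6 and Treml1 were not analysed here) and 3 of 9 endothelial markers (Cdh5 and Tek were not analysed here). The 5 platelet markers, most of their sum Pf4, which macrophages also make, summed to 90.5 to 190 CPM in WT chow, 201 to 274 in WT HFD, 112 to 250 in meKO chow and 165 to 320 in meKO HFD. The platelet integrin gene Itga2b was at most 1.27 CPM. The 3 endothelial markers summed to 42.1 to 67.0 CPM in WT chow and to 38.7 to 55.7 CPM in the other groups. The part of these cells in the Selp values was not tested.

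F5 (chr1:164151838-164220277) lies 1811 bases beyond the end of Selp on the same strand. Its levels were 36.8, 40.8 and 34.5 CPM in WT chow and 18.1, 21.6 and 18.2 CPM in WT HFD. The meKO levels were 32.2, 20.7 and 46.3 CPM on chow and 20.4, 21.0 and 29.1 CPM on the high-fat diet. Every WT HFD library lay below every WT chow library, and the meKO groups overlapped. The diet lowered F5 in WT cells by 1.94-fold (log2 fold change -0.95 ± 0.23, edgeR adjusted p = 0.0187), and averaged over genotypes by 1.65-fold (-0.72 ± 0.16, edgeR adjusted p = 0.00934). In meKO cells the difference was -0.49 ± 0.23 (edgeR adjusted p = 0.312). The WT call was lost without WT chow replicate 1 (edgeR adjusted p = 0.0808), WT chow replicate 2 (0.0716), WT HFD replicate 1 (0.0612) or WT HFD replicate 3 (0.0892), with log2 fold changes between -0.88 and -0.95. The averaged call stood in each of the 19 alternative fits, the repeat of the main fit with no filter among them.

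Fn1 (chr1:71585520-71653200, minus strand) encodes fibronectin, an adhesive matrix protein that resident and inflammatory macrophages both secrete. It was at 2157, 1797 and 1227 CPM in WT chow and at 908, 1285 and 1035 CPM in WT HFD. In meKO cells it was at 1040, 727 and 1311 CPM on chow and at 1126, 565 and 953 CPM on the high-fat diet. WT chow replicates 1 and 2 were the highest libraries, and WT chow replicate 3 lay within the range of the other groups. The diet difference in WT cells was -0.68 ± 0.27 (edgeR adjusted p = 0.0797), and the genotype difference on chow -0.75 ± 0.27 (edgeR adjusted p = 0.163). The first had an adjusted p of 0.0439 by DESeq2 and from 0.00713 (limma-voom with library weights) to 0.336 over all 20 alternatives, 5 of which called it. The second was called in 2 of 20, with limma-voom (adjusted p = 0.0137) and in edgeR without WT chow replicate 3 (0.0426), and its adjusted p reached 0.530.

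Fn1 and F5 have the longest exon sequence of the 10 markers, 11685 and 7430 bases against a median of 4463 over all genes. Both were highest in WT chow replicates 1 and 2 and meKO chow replicate 3, which are also the 3 libraries with the highest correlation of deviation and exon length. With counts corrected for exon length, the diet difference of F5 in WT cells was -0.73 (edgeR adjusted p = 0.0450) and that of Fn1 -0.34 (0.336), and the genotype difference of Fn1 on chow was -0.44 (0.388).

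Prg4 (chr1:150449412-150466165, minus strand) encodes lubricin, the lubricating glycoprotein of joints and serous surfaces. It stood at 27.8, 95.3 and 93.1 CPM in WT chow and, in WT HFD, at 20.7, 30.3 and 37.4 CPM. The meKO libraries held 63.3, 13.3 and 29.3 CPM on chow and 19.5, 30.4 and 24.9 CPM on the high-fat diet. The same 3 chow libraries as for Timd4 and Selp held the highest values, and meKO chow replicate 2 the lowest. The diet difference in WT cells was -1.29 ± 0.58 and the genotype difference on chow -1.03 ± 0.58, edgeR adjusted p = 0.133 and 0.340. Within a chow group the highest library exceeded the lowest by 3.43-fold (WT) and 4.77-fold (meKO).

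Cxcl13 (chr5:95956951-95961068) encodes the chemokine that draws B cells to body cavities. It was at 2.60, 2.19 and 6.88 CPM in WT chow and at 2.14, 1.45 and 1.38 CPM in WT HFD. In meKO cells it was at 5.20, 1.74 and 3.15 CPM on chow and at 3.96, 3.51 and 3.10 CPM on the high-fat diet. Every WT HFD library lay below every WT chow library, the nearest being 2.14 against 2.19 CPM, and every meKO HFD library lay above every WT HFD library. The diet difference in WT cells was -1.23 ± 0.44 (edgeR adjusted p = 0.0592; 0.0247 by DESeq2, 0.162 by limma-voom with library weights, and called in 4 of 20 alternatives with p up to 0.280). Without WT chow replicate 3 it was -0.53. The genotype difference on the high-fat diet was 1.09 ± 0.44, with an unadjusted p of 0.0269 and an adjusted p of 0.999 in edgeR.

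Alox15 (chr11:70344152-70352031, minus strand) encodes a lipoxygenase that oxygenates polyunsaturated fatty acids. It was at 5.15, 14.5 and 24.1 CPM in WT chow and at 2.20, 3.20 and 6.20 CPM in WT HFD. In meKO cells it was at 12.2, 3.61 and 12.2 CPM on chow and at 4.94, 5.87 and 6.63 CPM on the high-fat diet. WT chow replicate 1 lay below WT HFD replicate 3, and meKO chow replicate 2 below all 3 meKO HFD libraries. The diet lowered Alox15 in WT cells by 3.75-fold (log2 fold change -1.91 ± 0.61, edgeR adjusted p = 0.0498) and averaged over genotypes by 2.46-fold (-1.30 ± 0.43, edgeR adjusted p = 0.0434). Of the 20 alternative fits of the WT difference 6 kept the call, with edgeR, DESeq2 or limma-voom adjusted p-values from 0.0178 to 0.135 over all 20, and of the 19 of the averaged difference 9 kept it (0.0163 to 0.164). Both counts include the fit with no filter, which repeats the main one. Without WT chow replicate 3 the WT log2 fold change was -1.33 (edgeR adjusted p = 0.112).

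B cell transcripts also fell on the diet averaged over genotypes. The 6 of 8 B cell markers in the table (Pax5 and Ebf1 were not analysed here) summed to 109 to 168 CPM in WT chow, 52.8 to 88.8 in WT HFD, 75.3 to 165 in meKO chow and 57.3 to 115 in meKO HFD. In WT cells 0 of the 6 rose and 3 fell on the diet, among them Fcmr by 1.49 on the log2 scale (SE 0.38, edgeR adjusted p = 0.0217) and Ighm by 0.98 (SE 0.29, edgeR adjusted p = 0.0337), where 11.8% of all genes fell. Averaged over genotypes all 6 fell, against 15.3% of all genes. In meKO cells 0 of the 6 passed in edgeR (0.105% of all genes did), with 3 at an unadjusted p under 0.05 (15.9% of all genes). Eosinophils also express Alox15: 4 of 8 eosinophil markers were in the table (the granule genes Epx and Prg2 were not analysed here), and they summed to 39.5 to 46.4 CPM in WT chow, 21.4 to 31.2 in WT HFD, 30.1 to 66.5 in meKO chow and 28.2 to 46.8 in meKO HFD. Siglecf, a marker of eosinophils, lay between 4.86 and 11.5 CPM. Over single libraries the B cell sum and Alox15 were both highest in WT chow replicate 3, at 168 and 24.1 CPM. Both were lowest in WT HFD replicate 1, at 52.8 and 2.20 CPM. Between these ends their order differed in part. In WT chow replicate 1 the sum was 141 CPM and Alox15 5.15 CPM, and in WT chow replicate 2 they were 109 and 14.5 CPM. The part of either cell type in the Alox15 result was not tested.

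The diet comparison in WT cells called 2 of the 10 markers, both lower, where the same test called 21.3% of all 12339 genes (11.8% lower). Groups did not overlap for 2 markers, F5 and Cxcl13, both lower on the high-fat diet; over all genes 39.3% of groups did not overlap (19.9% lower). DESeq2 called 4 markers (27.9% of all genes) and limma-voom 2, F5 and Fn1 (51.7%). By edgeR the share of markers called was near that of all genes. The median log2 fold change of the 10 was -0.82, against -0.03 over all genes, with 7 negative values and 3 positive (Gata6, Vsig4 and Icam2).

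In meKO cells the diet comparison called 0 of 10 markers, against 0.105% of all genes. At an unadjusted p under 0.05 edgeR had 2, Gata6 and F5, against 15.9% of all genes, and DESeq2 and limma-voom called 1 each, Gata6, against 1.83% and 4.23% of all genes. Gata6 was the 1 marker whose meKO groups did not overlap (10.3% of all genes were higher without overlap, and 19.7% in either direction). The 10 differences ran from -0.69 (Alox15) to 1.04 (Gata6) with a median of -0.20 (all genes -0.01), and 6 were negative. This median turned positive, 0.34 with 3 negative values, without meKO chow replicate 1. It was -0.43 without meKO chow replicate 2, -0.09 without meKO chow replicate 3, -0.13 without meKO HFD replicate 1, -0.32 without meKO HFD replicate 3 and -0.06 with limma-voom. Averaged over genotypes the diet called 3 of 10 markers, 1 higher (Gata6) and 2 lower (F5 and Alox15), against 30.2% of all genes, 14.9% higher and 15.3% lower.

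Genotype called 0 of 10 markers on chow, where it called 0.081% of all genes, and 0 of 10 on the high-fat diet, where the share was again 0.081%. At an unadjusted p under 0.05 edgeR had 2 on chow, Fn1 and Selp (19.8% of all genes), and 1 on the high-fat diet, Cxcl13 (4.56% of all genes). DESeq2 called 0 of 10 on either diet, against 4.56% of all genes on chow and 0.43% on the high-fat diet. Limma-voom with library weights called 1 on chow (Fn1), against 33% of all genes, and 0 on the high-fat diet, against 1.17%. On chow 9 of the 10 differences were negative (meKO below WT), from -1.14 for Selp to 0.13 for Icam2, with a median of -0.55, against -0.00117 over all genes, and 0 of 10 had groups that did not overlap, against 17.1% of all genes. On the high-fat diet the differences ran from -0.46 (Selp) to 1.09 (Cxcl13) with a median of -0.11 (all genes 0.02), and Cxcl13 alone of the 10 had groups that did not overlap, higher in meKO, as did 5.45% of all genes (10.3% in either direction). That median was positive without meKO HFD replicate 1 (0.14, with 4 negative values), without WT HFD replicate 3 (0.09, with 5) and with limma-voom (0.03, with 4), and -0.27 without WT HFD replicate 1. WT chow is the reference of the genotype comparison on chow and of the diet comparison in WT cells, so the 2 sets of differences share those 3 libraries. Without meKO chow replicate 2, the library lowest in Lyz2, 7 of the 10 chow differences between genotypes were negative with a median of -0.22. Among these 7 were Selp (-0.76), Prg4 (-0.62) and Fn1 (-0.54). Without WT chow replicate 3 the median was -0.23, with 8 negative values, and with limma-voom and library weights -0.32, also with 8. It was -0.82 without meKO chow replicate 1, -0.65 without WT chow replicate 1 and -0.54 with the exon length correction, with all 10 differences negative in these 3 fits.

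The diet effect was compared between genotypes directly by the interaction, which called 0 of 10 markers and 0.0162% of all genes; 0 of the 10 had an unadjusted p under 0.05 in edgeR (6.13% of all genes), and DESeq2 and limma-voom also called 0, against 0.122% and 3.19% of all genes. The interaction terms of the markers ran from -0.19 to 1.30 on the log2 scale, and the smallest edgeR adjusted p was 0.797. Genotype averaged over diets called 0 of 10 and 0.17% of all genes; 1 of the 10 had an unadjusted p under 0.05 in edgeR (17.7% of all genes), DESeq2 called 0 (2.97% of all genes) and limma-voom 1 (31.1%), and the smallest edgeR adjusted p was 0.205.

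**Figure D3:**
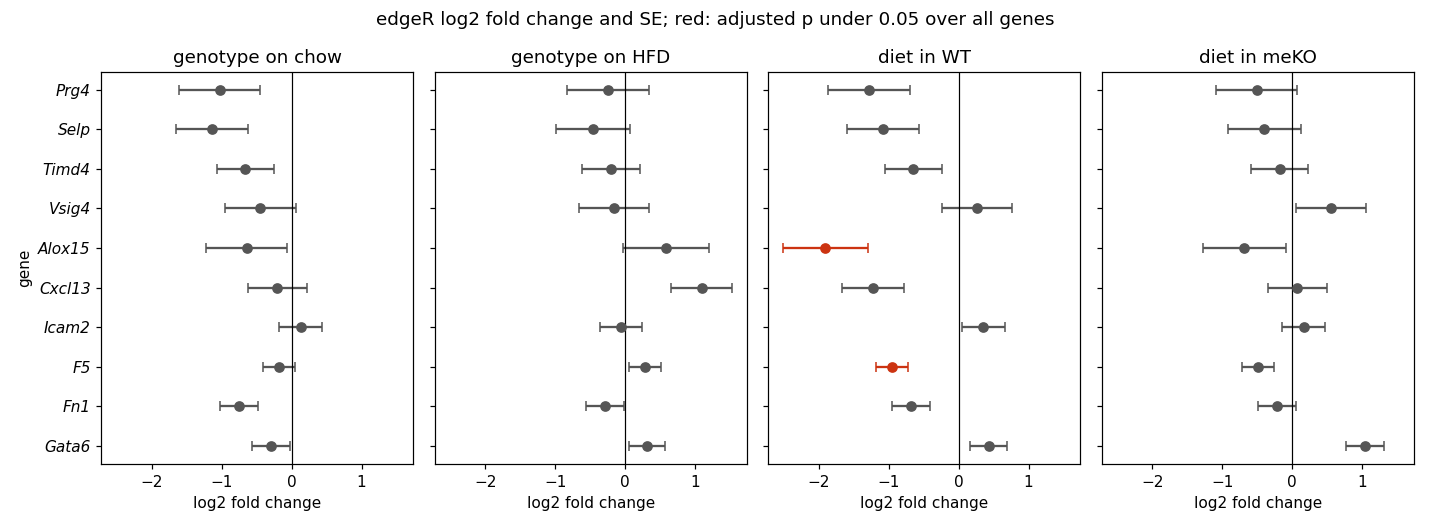
Log2 fold change (horizontal axis) with its SE for each marker in the 4 comparisons, genotype as meKO against WT and diet as high-fat against chow; red marks an edgeR adjusted p under 0.05 over all genes. F5 (-0.95) and Alox15 (-1.91) in the diet comparison of WT cells are the 2 values in red.

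The markers varied more between libraries of 1 group than most genes did. The SD of log2 CPM within groups was above the median of all genes (0.21) for all 10 markers, and above the 95th percentile for 6: Alox15, Prg4, Selp, Vsig4, Cxcl13 and Timd4. Alox15 was the most variable, with an SD of 0.85, and Gata6 the least, with 0.32, at percentiles 98.9 and 79.6. Genes were not matched for level in this comparison. The lowest counts in a library were 39 for Gata6, 42 for Cxcl13, 68 for Alox15 and 91 for Selp. The library meKO chow replicate 2 was below the mean of the 12 libraries for all 10 markers and among the 3 lowest for 8. WT chow replicate 3 was above the mean for 9 of 10, and WT chow replicate 2 and meKO chow replicate 1 for 8 each. WT chow replicate 1, of the same group as the first of these, was below the mean for 8.

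**Figure D4:**
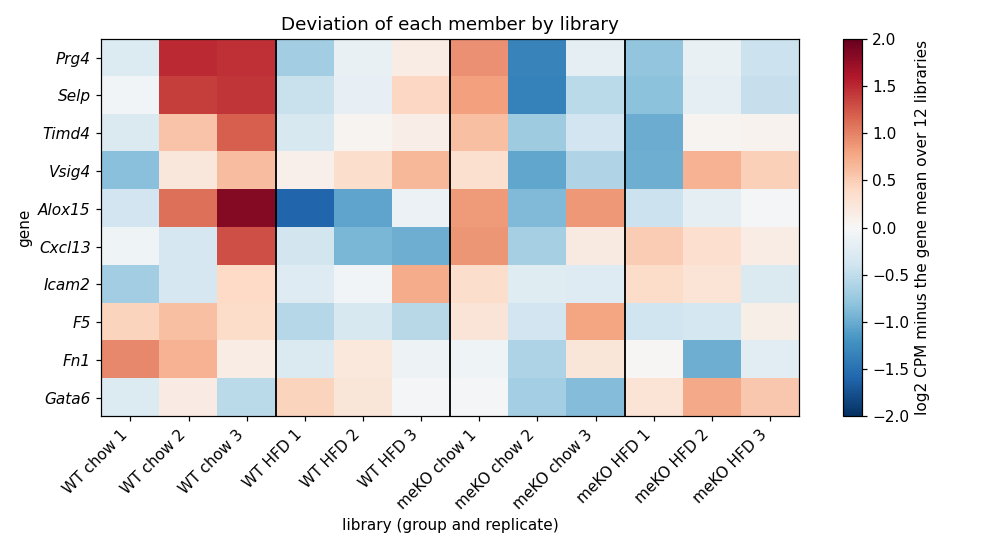
Log2 CPM of each marker minus its mean over the 12 libraries, by library (columns, grouped by genotype and diet); red is above and blue below the mean. The columns WT chow replicate 3 and meKO chow replicate 2 differ in sign for 9 of the 10 markers, and Prg4 and Selp share nearly the same pattern.

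Across the 12 libraries 45 pairs of markers were correlated in log2 CPM, with permutation p-values from 100000 draws adjusted over the 45 (Benjamini-Hochberg). The 3 pairings among Timd4, Selp and Prg4 passed by both Pearson's r and Spearman's rho. Selp and Prg4 had r = 0.980 (permutation p = 1e-05, the smallest these draws can give; adjusted 0.00045) and rho = 0.902 (permutation p = 0.00015, adjusted 0.0054); r was 0.953 without WT chow replicates 2 and 3 and 0.985 within groups. For Timd4 and Selp r was 0.908 and rho 0.895 (adjusted permutation p = 0.0012 and 0.0054), with r = 0.908 without the 2 libraries farthest from the median of Timd4, and for Timd4 and Prg4 r was 0.904 and rho 0.867 (adjusted permutation p = 0.0012 and 0.0081), with r = 0.911. Another 3 pairs passed by r alone: Timd4 with Vsig4 (r = 0.765, and 0.972 within groups), Alox15 with Prg4 (0.820, and 0.882 within groups) and Alox15 with F5 (0.745, and 0.466 within groups). Libraries within a group share diet and genotype, so the values within groups are the ones free of group means. The permutations ran over all 12 libraries regardless of group, so their p-values belong to correlations that include the group means. The values within groups were not tested.

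Outside the markers, the genes with the most similar pattern over the 12 libraries were named by the highest Pearson's r of log2 CPM, as a description. For Prg4 this was Ltbp1 (r = 0.961, rho 0.839), a latent TGF-beta binding protein gene that is itself on the list of resident macrophage genes below, and for Selp and Timd4 it was Hgsnat, a lysosomal acetyltransferase gene (r = 0.949 and 0.917). Ltbp1 was at 2.24, 9.24 and 9.35 CPM in WT chow, at 1.88, 2.55 and 2.20 in WT HFD, at 5.12, 0.814 and 2.35 in meKO chow and at 1.91, 3.28 and 2.70 in meKO HFD, with the high values in the same 3 libraries. For Gata6 the nearest were Sema3a (0.930), Nckap1 (0.914) and Cd34 (0.911), the last a gene of stromal, endothelial and progenitor cells. The nearest to Alox15 were Btla (0.941), a lymphocyte receptor gene, Sla (0.899) and Ikzf3 (0.886), a lymphoid transcription factor gene. Vsig4 was nearest to Edil3 (0.960), Fn1 to Arid5a (0.960), F5 to Mmd (0.952), Cxcl13 to Ebi3 (0.906) and Icam2 to a gene without a symbol, Entrez100039257 (0.890).

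Another 19 genes of resident peritoneal macrophages or of the GATA6 programme were all in the table. On the high-fat diet 3 rose and 1 fell in WT cells, where edgeR called 21.3% of all genes: the tetraspanin gene Cd9 (log2 fold change 0.68 ± 0.13), the transcription factor genes Klf4 (0.73 ± 0.24) and Cebpb (0.75 ± 0.23), and Cd93 (-0.82 ± 0.13), with edgeR adjusted p-values of 0.0107, 0.0467, 0.0346 and 0.00647. Averaged over genotypes, where 30.2% of all genes were called, 5 of 19 rose and 3 fell, the latter including Cd93 and the integrin gene Itgam (-0.45 ± 0.14, edgeR adjusted p = 0.0286). Between genotypes 0 of 19 passed on either diet, where 0.081% of all genes did. The GATA6-dependent gene Tgfb2, chosen after its values were seen, stood at 10.4, 10.9 and 8.07 CPM in WT chow. In meKO chow it stood at 5.12, 1.93 and 3.63 CPM, without overlap (edgeR adjusted p = 0.0692). Groups did not overlap for 17.1% of all genes in that comparison. The genotype differences of the 19 on chow ran in both directions, from -1.73 to 0.62, with a median of -0.21. The median diet difference of the 19 in WT cells was -0.12, against -0.03 over all genes.

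**Figure D5:**
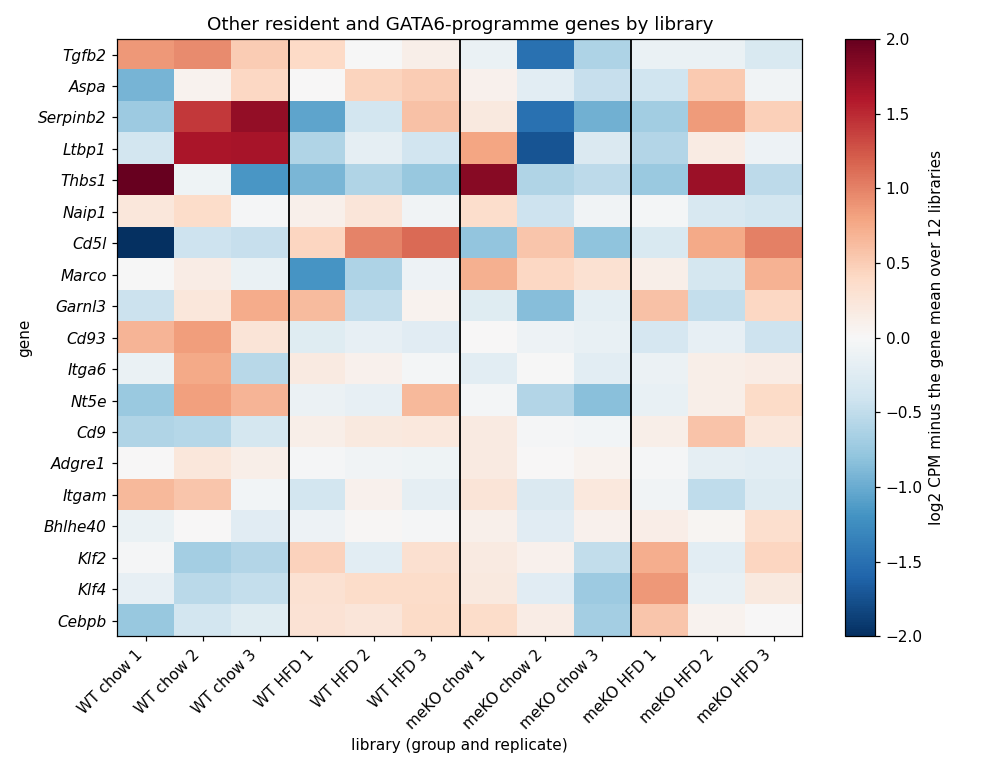
Log2 CPM minus the mean over the 12 libraries for 19 further resident or GATA6-programme genes (rows) by library (columns), with colours that stop at -2 and 2. Serpinb2 and Ltbp1 are high in WT chow replicates 2 and 3, where Serpinb2 reaches 33.6 and 42.4 CPM, and Cd9 is lower in the 3 WT chow libraries than in the other 9.

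Of 18 genes of retinoid signalling, which acts upstream of Gata6, 12 were in the table. In WT cells the diet raised 3, among them Aldh1a1 (1.23 ± 0.40) and Tgm2 (0.71 ± 0.21), and lowered 1, the receptor gene Rxra (-0.91 ± 0.16), with edgeR adjusted p-values of 0.0441, 0.0340 and 0.00853 for the genes named. Averaged over genotypes 5 rose and 1 fell. Over all genes edgeR called 21.3% and 30.2% in these 2 comparisons. Aldh1a1, a retinal dehydrogenase gene, was low, at a mean of 3.44 CPM, and Wt1 stands on both this list and the mesothelium list. Between genotypes 0 of 12 passed on either diet, where 0.081% of all genes did.

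Genes of the other macrophages of the cavity were read in the same comparison. In WT cells edgeR called 21.3% of all genes for diet, 11.8% lower. Of 15 small peritoneal and monocyte-derived macrophage genes 8 fell and 1 rose in that comparison, among them the antigen presentation genes Ciita (-1.88 ± 0.27) and Cd74 (-1.24 ± 0.22) and the lectin receptor genes Mrc1 (-0.86 ± 0.16) and Clec10a (-0.58 ± 0.14), with edgeR adjusted p-values between 0.00308 and 0.0206. Ciita and Cd74 are also expressed in B cells. Of 15 genes of thioglycolate-elicited macrophages 4 rose and 0 fell, while 44.5% of the calls over all genes were higher. The 4 were S100a4 (1.28 ± 0.22), Spp1 (0.66 ± 0.22), Trem2 (0.56 ± 0.14) and Lgals3 (0.41 ± 0.12), with edgeR adjusted p-values between 0.00754 and 0.0448. The medians of these lists in WT cells were -0.78 and 0.49. In meKO cells 0 genes of either list passed for diet, where 0.105% of all genes did, with medians of -0.35 and 0.34.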

How the data were processed

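RNA of 12 libraries was extracted with Trizol and prepared by Illumina's TruSeq protocol, per the labels' protocols. The authors deposited whole-number counts per gene and library; mm10 and DESeq2 are named in the submitters' processing notes, while the aligner, the counter and the strand setting are not given in the sources used here, so overlapping or antisense genes could share counts. Of the 12339 genes, 186 without a symbol were kept under their Entrez number. Groups came from the sample titles.

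The tests were two-sided quasi-likelihood F tests from edgeR 4.0.16 (R 4.3.3), with TMM factors, robust estimates of dispersion, the filterByExpr filter, which removed 0 genes, and 4 group means fitted in 1 model of the 12 libraries. A gene was called where its p, adjusted over all genes by Benjamini and Hochberg's method, was under 0.05. The script was tested on simulated data. Other settings tried were library totals, median-of-ratios factors, at least 10 counts in every library, no filter, DESeq2 1.42.0, limma 3.58.1 voom with library quality weights, only the groups compared, an offset for exon length (93.5% of genes had one), and leaving out each library. Because the filter removed 0 genes, the fit with no filter repeated the main fit, and it is counted among the alternatives throughout. Correlations used log2 CPM with a prior count of 2.

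The markers and gene lists were chosen with earlier results of these data known. Named genes were all 10 markers, up to 4 called genes per list and comparison with the smallest p, and the 3 genes of at least 1 CPM nearest to each marker. The virus's insert and some list genes that this rule names are not reported here. Tgfb2, Serpinb2, Msln, Itga2b, Pf4, Siglecf and Lyz2 fall outside the rule and were chosen after their values were seen. Of the other lists, mast cells had 8 of 8 genes in the table, with 1 lower on the diet in WT cells (Kit). T and NK cells had 7 of 8, with 0 called in any comparison by edgeR and, at an unadjusted p under 0.05, 2 for genotype on the high-fat diet. Neutrophils had 6 of 8, with 1 (S100a9) higher in meKO cells on each diet, 3 higher for genotype averaged over diets, and 2 higher and 2 lower on the diet in WT cells. Of the 8 macrophage-defining genes 2 rose and 1 fell on the diet in WT cells. Over all genes edgeR called 21.3% for diet in WT cells, 0.081% for genotype on each diet and 0.17% for genotype averaged over diets. For genotype on the high-fat diet 4.56% of all genes had an unadjusted p under 0.05 in edgeR. Sums over the platelet and endothelial lists stand beside Selp; in WT cells the diet raised Clec1b and lowered Itgb3 of the former and lowered Vwf of the latter.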

Additional observations from a re-analysis of the deposited data

How the results depend on the processing

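No paired analysis was possible because the replicate numbers only follow the order of the samples. In the diet comparison of WT cells the count of 2 markers called changed in 14 of 20 alternatives: it became 1 with median-of-ratios factors (F5), 3 with library totals and with the exon length offset (Cxcl13 added in both) and 4 with DESeq2 (Alox15, Cxcl13, F5 and Fn1), and ran from 0 to 3 without 1 library, with 0 when WT chow replicate 1 or 2 or WT HFD replicate 1 or 3 was left out. The count of 0 for diet in meKO cells became 1 with DESeq2 and with limma-voom (Gata6 in both). For genotype on chow the count of 0 became 1 with limma-voom (Fn1), and 0 to 1 without 1 library (Fn1, without WT chow replicate 3). Averaged over genotypes the diet count of 3 ran from 2 to 6 without 1 library, with 6 (Fn1, Prg4 and Selp added) without meKO chow replicate 2. For genotype averaged over diets it became 1 with limma-voom (Fn1). The cause was not tested.

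Small differences changed sign. With limma-voom, genotype on chow was 0.17 for Cxcl13, genotype on the high-fat diet 0.0201 for Timd4 and 0.0449 for Vsig4, and diet in meKO cells 0.11 for Timd4 and -0.0802 for Icam2. With the exon length offset, genotype on chow was -0.0256 for Icam2, diet in WT cells -0.0467 for Vsig4, and diet in meKO cells -0.13 for Cxcl13. Without 1 library, genotype on chow ran from -0.0952 to 0.51 for Icam2, -0.67 to 0.50 for Cxcl13 and -0.50 to 0.0789 for F5; genotype on the high-fat diet from -0.25 to 0.29 for Icam2, -0.37 to 0.0856 for Timd4 and -0.47 to 0.20 for Vsig4; diet in WT cells from -0.0354 to 0.61 for Vsig4; and diet in meKO cells from -0.44 to 0.30 for Timd4, -0.78 to 0.43 for Selp, -0.91 to 0.22 for Prg4, -0.25 to 0.53 for Cxcl13 and -0.43 to 0.0191 for Fn1. Of 990 alternative values of single markers, those of the repeat fit with no filter included, 73 changed sign or call.

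Over all genes the count for diet in WT cells (2634) ran from 1740 (length offset) to 6384 (limma-voom), and without 1 library from 96 to 4921. The other counts ran, over all settings but the left-out libraries and then without 1 library, from 2 to 4078 and 2 to 2543 for genotype on chow (10), 8 to 144 and 3 to 16 for genotype on the high-fat diet (10), 1 to 522 and 1 to 135 for diet in meKO cells (13), 1 to 393 and 1 to 56 for the interaction (2), 3069 to 6264 and 1957 to 5326 for diet averaged (3721), and 18 to 3843 and 8 to 1400 for genotype averaged (21). Scaling by library totals moved the median of all genes in the diet comparison of WT cells to -0.12 and the share of higher calls from 44.5% to 31.3%, and for diet averaged from 49.3% to 38.1%. At 39 to 113 counts, Gata6 was the marker most limited by depth.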
